A study of Mus musculus with 4 samples.

Results

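The 4 ID proteins and the 3 E proteins that they bind were followed in ID4-EGFP+ spermatogonia of control and *Cnot3*-cKO mice. The members were the rows with the gene symbols *Id1*, *Id2*, *Id3*, *Id4*, *Tcf3*, *Tcf4* and *Tcf12*, which are 7 of the 54920 genes listed in each library. All 7 passed the filter on low counts. *Id2* and *Id4* transcripts were about 2 times as high in *Cnot3*-cKO cells, and none of the 3 E-protein transcripts passed the test. *Id1* and *Id3*, with 20 to 94 reads per library, had wide intervals.

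Total RNA was sequenced from cells sorted at postnatal day 8, with 2 control and 2 *Cnot3*-cKO libraries. Both groups of pups had received 4-OHT, the active form of tamoxifen, on days 1 to 3 after birth, both carried floxed *Cnot3* on both alleles (flox/flox), and both carried the *Id4-eGfp* reporter. The *Cnot3*-cKO mice also carried *Ddx4*-creER, a tamoxifen-activated Cre recombinase driven from a germ cell gene, and the controls lacked it. *Cnot3* encodes a subunit of CCR4-NOT, the complex that shortens the poly(A) tails of mRNAs. Cells were gated on the *Id4* reporter in both groups, so *Id4* is the member closest to the gate itself. Whether the reporter adds reads to the *Id4* count is not given in the sources used here, so the *Id4* values may hold reads of the reporter as well as of the gene. Whether each library pooled pups is not given in the sources used here. If libraries were not separate animals, the p-values below measure a spread that is partly technical.

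ID proteins are small helix-loop-helix proteins that lack the basic region needed to touch DNA. They pair with E proteins, which are basic helix-loop-helix (bHLH) transcription factors made in many tissues, and the resulting pair cannot bind the E-box. E proteins left free bind E-boxes as pairs of their own or together with tissue-restricted bHLH factors such as NEUROG3, many of which drive differentiation. *Id* genes are classic targets of BMP signalling through SMAD proteins, and in the testis ID4 marks spermatogonial stem cells.

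The promoter of *Id4* and 3′ UTR sites of *Id4* and *Id2*, the 2 members that changed, are shown. Stretches of these kinds can be bound by transcription factors and by RNA-binding proteins. The promoter window is the 250 bases before the RefSeq start on GRCm38.p6, chr13:48260866-48261115 on the forward strand, and holds no annotated exon of the gene. The letters CANNTG (the E-box), GGCGCC (the GC-rich element through which BMP-activated SMADs act on *Id1*) and CCAAT (the box bound by NF-Y) were searched on both strands. Matches are in capitals, where CCAAT on the other strand reads ATTGG, and no printed match overlapped another. The RefSeq window of *Id2* lies inside the GENCODE gene, with 161 of its bases in an annotated exon, so no promoter of *Id2* is described.
Id4: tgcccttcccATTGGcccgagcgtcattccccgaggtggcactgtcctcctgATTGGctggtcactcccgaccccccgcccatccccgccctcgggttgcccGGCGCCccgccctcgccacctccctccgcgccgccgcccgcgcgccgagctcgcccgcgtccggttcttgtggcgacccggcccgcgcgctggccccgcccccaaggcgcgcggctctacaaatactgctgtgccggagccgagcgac

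The *Id4* window held 1 GGCGCC, which occurred in 9.59% of all 32851 promoters of this length, and 2 CCAAT, which occurred in 33.8%. It held 0 E-boxes, against 66.2% of all promoters with at least 1, and was 75.6% G or C. The shares are of all promoters and were not matched for G and C content. They therefore cannot show whether these counts are unusual for such a sequence. A match is a run of letters, and binding was not measured.

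In the 3′ UTR of the longest coding transcript (GENCODE M21, GRCm38), the Pumilio element TGTANATA was searched on the transcript strand. Pumilio proteins bind this element in RNA and recruit CCR4-NOT. As in the promoter, all 3′ UTR matches given here are runs of letters. Neither binding nor decay of these transcripts was measured. *Id4* held 4 matches in 3093 bases and *Id2* held 1 in 785 bases, each shown in capitals with 10 flanking bases on each side. The number in each name is the position of the first capital after the stop codon.
Id4, 464: accagagcacTGTAGATAtgttgtttta
Id4, 581: tttcatacccTGTATATAtagagatgtt
Id4, 672: aaatatttttTGTAAATAttatgtgtct
Id4, 1783: ttgggtgcttTGTAAATAgtgaactgtg
Id2, 455: ctgaatgctgTGTATATAtttatatata

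Of 15640 tested genes with a 3′ UTR, 25.4% held at least 1 match. Among the 1804 genes whose 3′ UTR was within 20% of the length of that of *Id4*, 45.6% held a match and 1.5% held 4 or more. Among the 1836 genes near the length of *Id2*, 17.3% held a match. *Id1*, *Id3* and *Tcf3*, with 3′ UTRs of 563, 536 and 618 bases, held 0 matches. The *Id1* transcript taken spans its whole gene of 1160 bases with no intron removed, and its other coding transcript was not searched. The same 1160 bases are the length behind the *Id1* levels per kb given below. *Tcf12* held 1 in 3884 bases, a length at which 50.4% of genes held a match, and *Tcf4* held 2 in 6007 bases. The AU-rich pentamer ATTTA, a core of the elements read by the ZFP36 proteins, occurred 9 times in *Id4*, or 2.91 per kb, and 3 times in *Id2*, or 3.82 per kb. It was absent from *Id1* and *Id3*, and the median over all genes was 1.25 per kb. Among genes with a 3′ UTR within 20% of the same length, the median was 1.60 per kb for *Id4*, 1.30 for *Id2*, 1.52 for *Id1* and 1.58 for *Id3*. *Tcf3*, *Tcf4* and *Tcf12* held 1.62, 1.66 and 2.06 per kb. The longer AU-rich form TTATTTATT, found in 7.76% of genes, occurred in *Tcf12* alone of the 7, as actacaaattTTATTTATTgttatggaac from base 360 after the stop codon.

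The control libraries held 40957899 and 43378493 reads and the *Cnot3*-cKO libraries 22192964 and 28019626. After TMM scaling, the groups were tested with the quasi-likelihood method of edgeR over 23952 genes, and a gene is said to have changed at a Benjamini-Hochberg adjusted p under 0.01. *Cnot3* itself, in CPM (reads scaled to the same library total), was at 58.6 and 50.2 in controls and at 19.2 and 19.9 in *Cnot3*-cKO libraries (log2 fold change -1.48, adjusted p = 1.48e-05). Over all tested genes 6.21% rose and 4.7% fell, the shares to set beside each count of markers that follows. Of the 12 germ cell markers 0 rose and 1 fell (*Mov10l1*), and their median log2 fold change was 0.03. Of the 14 stem cell markers 4 rose (*Gfra1*, *Etv5*, *Bcl6b*, *Eomes*) and 2 fell (*Zbtb16*, *Foxo1*), while 6 of 8 progenitor markers and 5 of 8 differentiation markers (*Kit*, *Stra8*, *Dmrtb1*, *Dnmt3b*, *Sohlh2*) fell. Markers of some somatic cells were also higher: 14 of 16 for Sertoli cells, 5 of 5 tested for Leydig cells and 8 of 9 for macrophages. Those of peritubular myoid and endothelial cells were mixed. Here 2 of 7 myoid markers (*Acta2*, *Myl9*) and 2 of 8 tested endothelial markers (*Pecam1*, *Kdr*) rose, and the others did not pass. *Tagln* and *Cnn1* of myoid cells and *Tie1* of endothelial cells had negative log2 fold changes (-0.63, -0.21 and -0.29), with group means of at most 0.68 CPM. Without *Cnot3*-cKO replicate 2, *Mov10l1*, *Bcl6b*, *Eomes*, *Star* of Leydig cells and *Acta2* lost their calls (adjusted p from 0.0113 to 0.133), as did *Kdr* without control replicate 2 or *Cnot3*-cKO replicate 1 (0.0121 and 0.0227). *Foxo1* lost its call with robust dispersions (0.0649), with DESeq2 (0.0281) and with scaling to germ cell markers (0.0104), and *Mov10l1* with the last of these (0.0254). That scaling takes the summed reads of the 12 germ cell markers, so it leans on the most abundant. *Dazl* was the largest part of the sum, at 2487 CPM on average in controls and 2144 CPM in *Cnot3*-cKO libraries (log2 fold change -0.21, adjusted p = 0.0840). In bulk RNA, fewer cells of a type and less RNA per cell cannot be told apart. The smallest two-sided p of an exact permutation test on 1 gene is 0.333 here, so each adjusted p rests on the spread modelled across all genes.

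**Figure D1:**
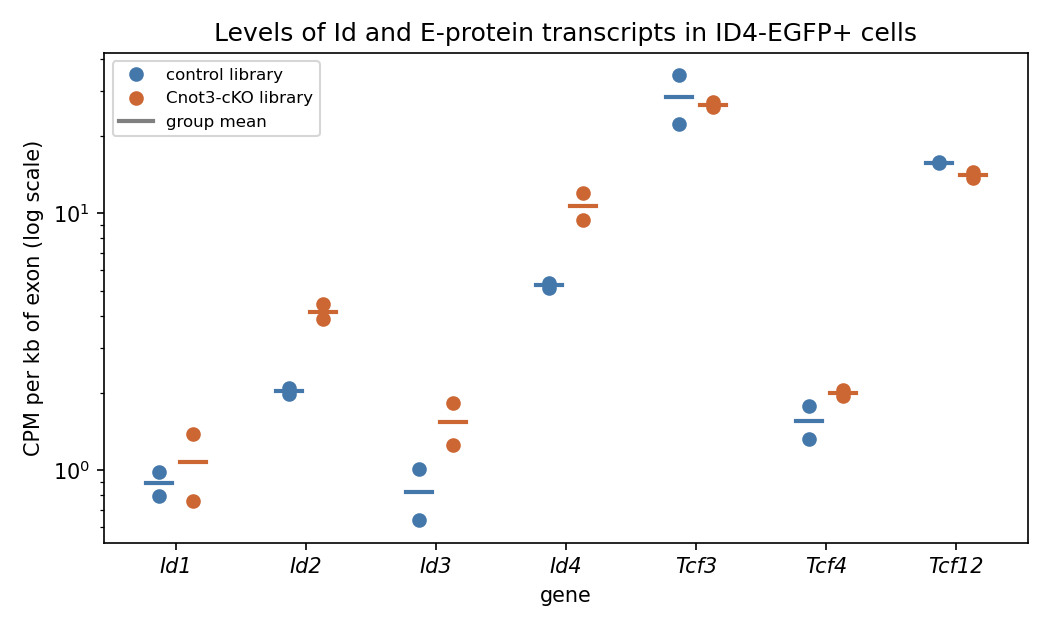
CPM per kb of exon (log axis) for each member in each library, with control libraries in blue, *Cnot3*-cKO libraries in orange and bars at the group means (n = 2 each). *Id2*, *Id3*, *Id4* and *Tcf4* have both *Cnot3*-cKO libraries above both controls, while *Tcf3* is the highest member on this scale in both groups.

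*Id4*, the marker of spermatogonial stem cells, lies at chr13:48261228-48266026 on the forward strand of GRCm38. It was at 20.6 and 19.7 CPM in controls and at 36.3 and 46.3 CPM in *Cnot3*-cKO libraries. These values come from 830 and 830 reads in the controls and from 822 and 1327 reads in the smaller *Cnot3*-cKO libraries. The groups did not overlap, and the *Cnot3*-cKO libraries also differed more from each other than the controls did. The log2 fold change was 1.04 (standard error 0.14, 95% interval 0.72 to 1.35, adjusted p = 4.05e-04), a level 2.05 times that of controls. It stayed past the threshold when any 1 library was left out, from 0.85 to 1.19. Exons of *A330033J07Rik* and *Gm49291*, on the opposite strand, cover 2.13% and 4.44% of the *Id4* exon bases. The strand setting of the counting is not stated, so reads of these partners cannot be told apart from those of *Id4* over that stretch.

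*Id2*, an ID family member best known from lymphoid and neural progenitors, lies at chr12:25093799-25097140 on the reverse strand. It was at 5.09 and 4.85 CPM in controls and at 9.45 and 10.8 CPM in *Cnot3*-cKO libraries, again with no overlap between groups. Its log2 fold change was 1.03 (standard error 0.21, 95% interval 0.58 to 1.48, adjusted p = 0.00433), 2.04 times the control level. Without *Cnot3*-cKO replicate 2 the log2 fold change was 0.93 and the adjusted p 0.0204, which is past the threshold no longer. In CPM, *Id2* stood at 0.247, 0.246, 0.260 and 0.233 times *Id4* in the 4 libraries, so this ratio was close to constant across the groups.

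*Id3* (chr4:136143497-136145755, forward strand), which with *Id1* is a direct BMP target in many cells, was at 1.14 and 1.81 CPM in controls and at 2.25 and 3.28 CPM in *Cnot3*-cKO libraries. The groups did not overlap, but each library held only 46 to 94 reads. Its log2 fold change of 0.91 had a 95% interval from 0.11 to 1.72 and did not pass (adjusted p = 0.106). *Id1* (chr2:152736251-152737410, forward strand) was at 0.919 and 1.14 CPM in controls and at 0.883 and 1.61 CPM in *Cnot3*-cKO libraries, from 20 to 48 reads each. Its groups overlapped, and its interval of -0.74 to 1.31 around 0.28 (adjusted p = 0.740) leaves room for a fall as well as for a rise as large as that of *Id4*. A difference was thus not detectable at this depth for *Id1*.

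**Figure D2:**
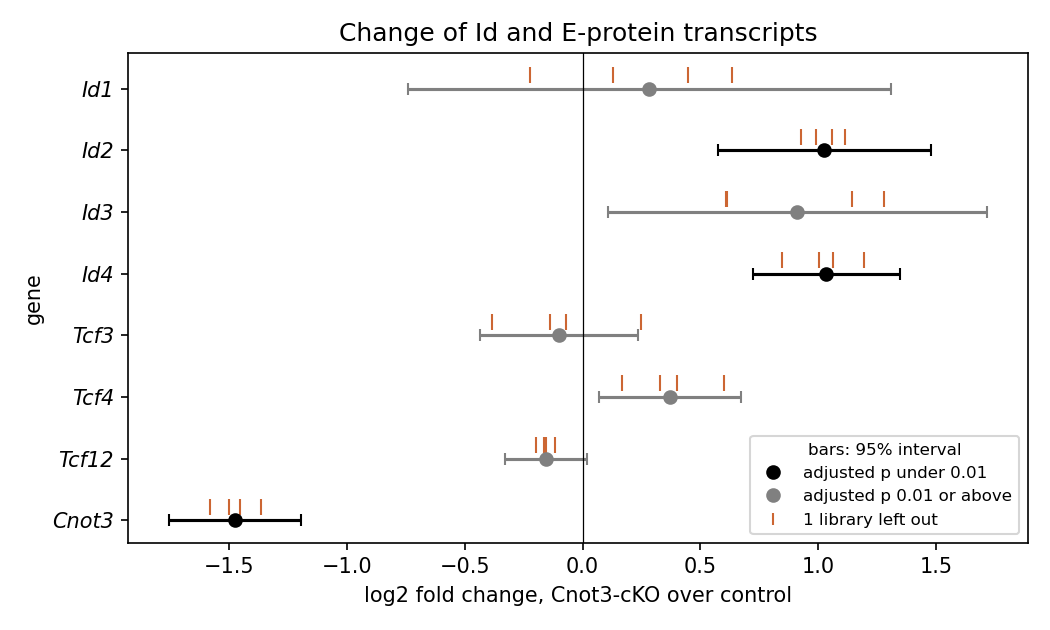
Log2 fold change of *Cnot3*-cKO over control for the 7 members and *Cnot3*, with bars for the 95% intervals, black points for an adjusted p under 0.01 and orange ticks for fits that leave out 1 library. *Id2* and *Id4* sit at 1.03 and 1.04 with intervals clear of 0, and the ticks of *Tcf3* fall on both sides of 0.

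The E proteins showed smaller differences. *Tcf12*, which encodes HEB, lies at chr9:71842688-72111871 on the reverse strand and was at 246 and 243 CPM in controls and at 213 and 226 CPM in *Cnot3*-cKO libraries. Both *Cnot3*-cKO libraries lay below both controls, by a log2 fold change of -0.16 (standard error 0.08, 95% interval -0.33 to 0.02, adjusted p = 0.208). With 4821 to 10236 reads per library, this is the most tightly bounded of the 7.

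*Tcf3*, which encodes E12 and E47, lies at chr10:80409514-80433647 on the reverse strand. It was at 90.4 and 139 CPM in controls and at 105 and 110 CPM in *Cnot3*-cKO libraries, which fell between the controls. The log2 fold change was -0.10 (95% interval -0.43 to 0.23, adjusted p = 0.716), and it turned to 0.03 when libraries were scaled to germ cell markers. The 2 controls decide this value: without control replicate 1 it was -0.38 (adjusted p = 0.00245), and without control replicate 2 it was 0.25 (adjusted p = 0.0831).

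*Tcf4*, which encodes E2-2, lies at chr18:69343356-69689079 on the forward strand. It was at 48.9 and 36.1 CPM in controls and at 53.4 and 56.4 CPM in *Cnot3*-cKO libraries, with no overlap. The log2 fold change of 0.37 (95% interval 0.07 to 0.67) did not pass (adjusted p = 0.0804), though without control replicate 1 it was 0.60 (adjusted p = 5.79e-04).

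Of the 7 members, 2 had therefore risen and 0 had fallen at an adjusted p under 0.01, where 6.21% of all tested genes rose and 4.7% fell. The lower calls over all genes were the less stable, with 1125 here, 427 after scaling to germ cell markers and 678 without *Cnot3*-cKO replicate 2. The same 2 members also had a fold change above 2, the limit used in the study, which 4.03% of tested genes passed upward and 0.735% downward. The 2 are close to that limit. Both *Cnot3*-cKO libraries were above both controls for 4 members and below them for 1, against 30.5% and 28.6% of tested genes. The median log2 fold change of all tested genes was 0.01, and scaling to germ cell markers moved this median to 0.13. Under that scaling *Id4* was at 1.15 and *Id2* at 1.15.

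Per kb of exon, the order of levels in controls was *Tcf3*, *Tcf12*, *Id4*, *Id2*, *Tcf4*, *Id1* and *Id3*. The group means per kb were 28.5 ± 8.59 (SD, n = 2) for *Tcf3*, 15.7 ± 0.102 for *Tcf12*, 5.24 ± 0.162 for *Id4*, 2.04 ± 0.0699 for *Id2*, 1.55 ± 0.330 for *Tcf4*, 0.888 ± 0.135 for *Id1* and 0.823 ± 0.262 for *Id3*. Only *Id1* and *Id3* overlapped as neighbours in this order. In *Cnot3*-cKO cells the first 5 places were the same, with *Id4* at 10.7 ± 1.85 (SD, n = 2) and *Id2* at 4.15 ± 0.390 CPM per kb, and *Id3* and *Id1* changed places with overlapping libraries. The place of *Tcf4* depends on the length taken, because its annotated exons sum to 27382 bases and its longest coding transcript has 8577. With transcript lengths it came between *Id4* and *Id2* in both groups and overlapped *Id4* in controls. *Tcf3* and *Tcf12* were then at 39.0 and 38.8 CPM per kb in controls and at 36.3 and 34.8 in *Cnot3*-cKO cells, with overlapping libraries in both groups, so which of them leads also depends on the length taken.

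*Id4* made up most of the ID family transcripts per kb, at 60.4% and 56.3% in controls and 61.5% and 61.2% in *Cnot3*-cKO libraries. Summed over the family, ID transcripts stood at 8.87 and 9.11 CPM per kb in controls and at 15.3 and 19.7 in *Cnot3*-cKO libraries. The E proteins summed to 40.0 and 51.5 CPM per kb in controls and to 41.5 and 43.8 in *Cnot3*-cKO libraries, within the control range. Without division by length they summed to 385 and 419 CPM in controls and to 371 and 392 CPM in *Cnot3*-cKO libraries. On that scale *Cnot3*-cKO replicate 1 lay below both controls. The ID share of ID plus E transcripts was 18.2% and 15% in controls and 26.9% and 31.0% in *Cnot3*-cKO libraries. The mean share was 16.6% ± 2.22 (SD, n = 2) in controls and 29.0% ± 2.86 (SD, n = 2) in *Cnot3*-cKO cells, a difference of 12.4 percentage points. With the length of the longest coding transcript the means were 10.7% and 19.7%, so the size of the share depends on the length taken while its direction did not. E transcripts were in excess in every library. These are shares of transcripts, and protein was not measured.

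**Figure D3:**
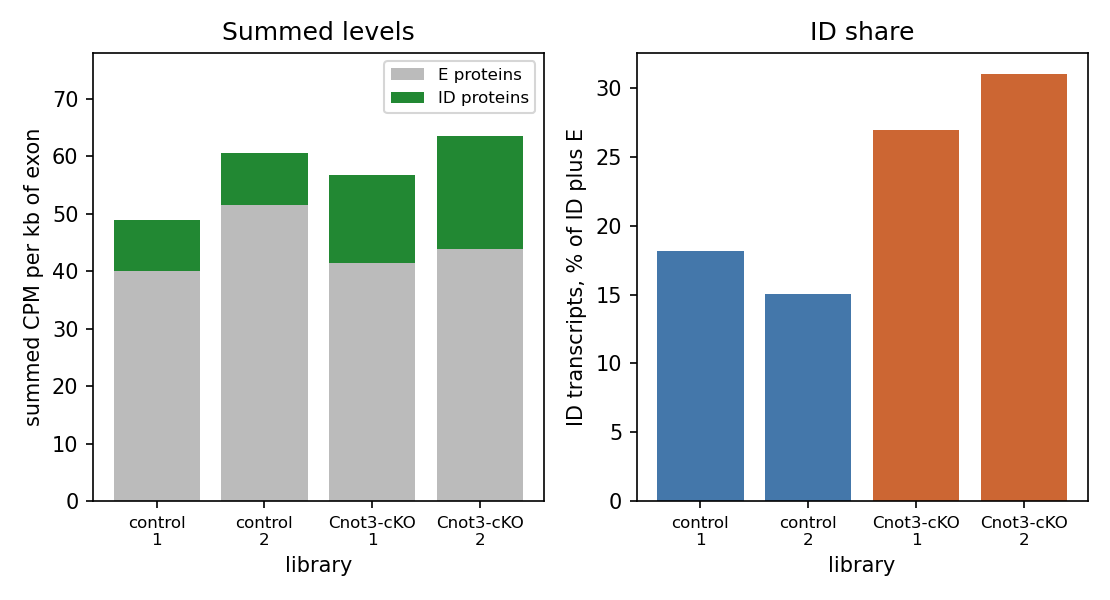
Left, summed CPM per kb of exon of the 3 E proteins (grey) and the 4 ID proteins (green) in each library; right, the ID share of the total in percent, with controls in blue and *Cnot3*-cKO libraries in orange. The share is 18.2% and 15% in controls and 26.9% and 31.0% in *Cnot3*-cKO libraries, while the grey bars of *Cnot3*-cKO libraries lie within the range of the controls.

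Most somatic markers moved in the same direction as *Id2* and *Id4*, and somatic testis cells are known to make ID and E proteins too. The summed level of the 16 Sertoli cell markers ranged from 711 to 817 CPM in controls and from 1634 to 1646 CPM in *Cnot3*-cKO libraries. Much of the control sum was *Tjp1*, which did not pass. It was at 498 and 412 CPM in controls and at 548 and 524 CPM in *Cnot3*-cKO libraries. The median log2 fold change of the 16 markers was 1.96. The Leydig cell markers ranged from 322 to 368 and from 831 to 896 CPM, although *Insl3*, a defining gene of Leydig cells, had 0 reads in every library. The 9 macrophage markers ranged from 132 to 209 and from 391 to 477 CPM. Endothelial markers ranged from 45.0 to 49.8 and from 61.4 to 71.5 CPM. *Sox9*, a defining gene of Sertoli cells, was at 3.72 CPM on average in controls and at 17.4 CPM in *Cnot3*-cKO libraries (log2 fold change 2.23, adjusted p = 1.57e-05). The part of these cell types in the *Id* values was not tested.

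The genes whose CPM followed *Id4* most closely over the 4 libraries were *Slc38a9*, *Tdrd3* and *Itga9*. Their distances from *Id4*, in centred log2 CPM, were 0.132, 0.151 and 0.211 among 6536 genes of average log2 CPM of at least 5. *Slc38a9*, a lysosomal arginine sensor, rose from a mean of 57.8 to 119 CPM and *Tdrd3*, a Tudor domain protein, from 31.7 to 65.3 CPM. *Itga9*, an integrin subunit, rose from 43.4 to 85.1 CPM. The distance is a description over 4 libraries, and no test was made.

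Genes that act with ID and E proteins were taken from 8 lists of 129 genes, of which 97 were tested. Of these, 8 rose and 8 fell, or 8.25% each, where 6.21% of all tested genes rose and 4.7% fell. The median log2 fold change was -0.11. With libraries scaled to germ cell markers, 9 rose and 5 fell, and *Tcfl5*, *Crebbp* and *Smad1* lost their calls (adjusted p from 0.0207 to 0.04998). These shares lie near those of all genes, and nothing is read from them about the lists.

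The tissue-restricted bHLH factors that pair with E proteins numbered 46, of which 20 had enough reads to test. Here 1 rose and 1 fell, where 6.21% of all tested genes rose and 4.7% fell. *Neurog3*, which marks progenitor spermatogonia, was at 8.04 and 7.44 CPM in controls and at 2.52 and 1.92 CPM in *Cnot3*-cKO libraries (log2 fold change -1.81, adjusted p = 4.46e-04). *Figla*, a germline factor best known from oocytes, was at 2.95 and 3.71 CPM and then at 6.75 and 8.10 CPM (log2 fold change 1.16, adjusted p = 0.00546). *Tcf21*, a mesenchymal factor of the same class, was at 1.74 and 2.28 CPM and then at 1.77 and 2.86 CPM and did not pass.

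Among 9 tested germline bHLH factors, 4 fell and 1 rose, where 4.7% of all tested genes fell and 6.21% rose. These counts include *Neurog3* and *Figla*, which are on the tissue-restricted list as well. *Neurog3*, *Stra8* and *Sohlh2* were also counted among the progenitor and differentiation markers above, so they are not separate results. *Stra8*, the retinoic acid target that opens the way to meiosis, went from 87.1 and 113 CPM to 37.6 and 48.3 CPM (log2 fold change -1.22, adjusted p = 1.3e-04). *Sohlh2* fell by 0.57 and *Tcfl5* by 0.44 on the log2 scale, with adjusted p of 9.27e-04 and 0.00948. The call of *Tcfl5* depended on the scaling. It was lost with upper quartile scaling (adjusted p = 0.0142), with library size alone (0.0197) and with scaling to germ cell markers (0.04998). *Sohlh1*, which works with *Sohlh2* in spermatogonial differentiation, was at 109 and 146 CPM in controls and at 109 and 116 CPM in *Cnot3*-cKO libraries and did not pass (adjusted p = 0.359). *Tcfl5* lost its call when control replicate 2 or either *Cnot3*-cKO library was left out (log2 fold changes -0.34, -0.38 and -0.52), and *Figla* when control replicate 1 or *Cnot3*-cKO replicate 2 was (adjusted p = 0.0130 and 0.0228).

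Of the 8 tested HES, HEY and BHLHE40 family repressors 1 rose and 0 fell, where 6.21% of all tested genes rose and 4.7% fell. *Bhlhe40*, a repressor tied to stress and the circadian clock, was the 1 that rose, from 4.87 and 6.13 CPM to 10.4 and 10.6 CPM (adjusted p = 0.00765). It lost its call when control replicate 1 or either *Cnot3*-cKO library was left out (adjusted p from 0.0126 to 0.0217). Of 16 cofactors of E proteins 1 rose and 1 fell, against the same shares of all tested genes. *Kat2b*, a histone acetyltransferase, rose by 0.65 on the log2 scale (adjusted p = 0.00147). *Crebbp*, another acetyltransferase that acts as a co-activator, went from 469 and 381 CPM to 302 and 280 CPM (log2 fold change -0.55, adjusted p = 0.00227; 0.0121 without *Cnot3*-cKO replicate 2). *Cbfa2t2*, a co-repressor of the ETO family, was at 82.1 and 77.4 CPM and then at 72.2 and 69.4 CPM and did not pass.

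Zinc finger repressors compete with E proteins for E-boxes. Of 6 tested, 1 rose and 0 fell, where 6.21% of all tested genes rose and 4.7% fell, and their median log2 fold change was 0.0006. *Zeb1* went down, from 69.2 and 67.6 CPM to 49.9 and 52.8 CPM, and did not pass (log2 fold change -0.41, adjusted p = 0.0128). *Zeb2* rose from 31.8 and 21.0 CPM to 80.6 and 74.0 CPM (log2 fold change 1.55, adjusted p = 6.1e-05). *Zeb2* is also expressed by macrophages, whose markers are given above, and by stromal cells. Of 8 cell cycle inhibitors and other targets of E proteins 1 rose and 0 fell, against the same shares of all tested genes. The 1 that rose was *Cdkn1a*, which encodes the inhibitor p21 and is also a p53 target. It went from 2.01 and 2.45 CPM to 7.72 and 4.78 CPM (log2 fold change 1.48, adjusted p = 0.00412). Without *Cnot3*-cKO replicate 1 it was 1.09 with an adjusted p of 0.0269. *Cdh1*, which encodes E-cadherin and is repressed by E proteins in epithelia, was at 33.1 and 22.3 CPM in controls and at 28.9 and 24.7 CPM in *Cnot3*-cKO libraries.

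**Figure D4:**
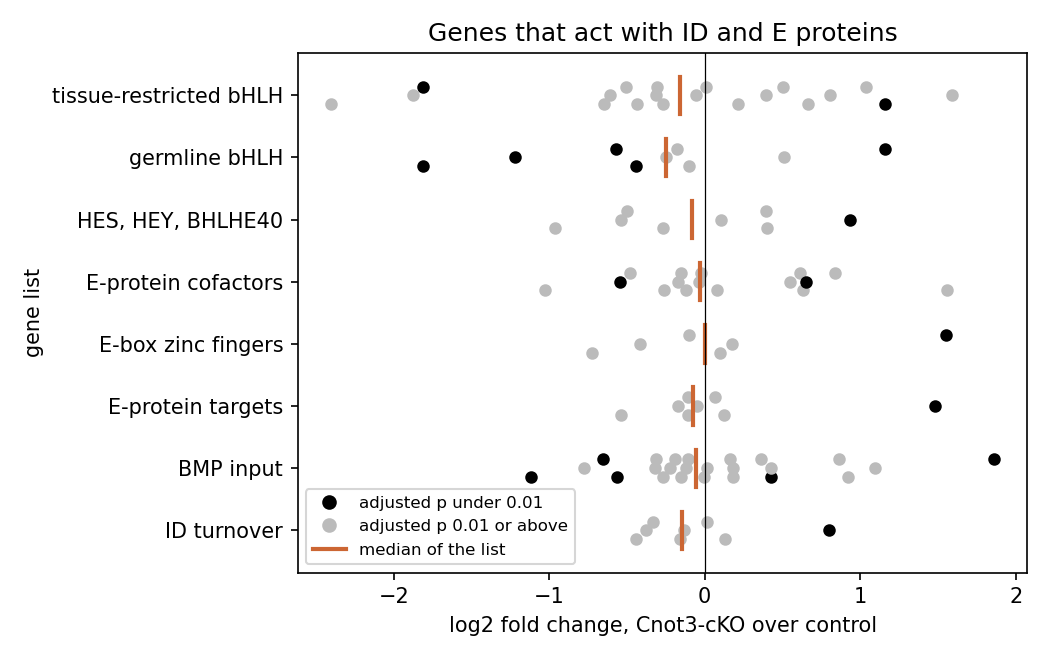
Log2 fold change of *Cnot3*-cKO over control for each tested gene of the 8 lists, with black points for an adjusted p under 0.01, grey points for the others and an orange line at each median. Of 97 genes 8 rose and 8 fell, and the list medians lie close to 0.

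The BMP ligands, receptors and SMADs that feed the *Id* genes numbered 24, all tested, of which 2 rose and 3 fell, against 6.21% and 4.7% of all tested genes, and their median log2 fold change was -0.05. The receptor gene *Acvrl1*, which encodes the type I receptor ALK1 of endothelial cells, rose from 3.30 and 2.97 CPM to 12.0 and 10.8 CPM (log2 fold change 1.86, adjusted p = 1.2e-04). The type II receptor gene *Bmpr2* rose by 0.42 (log2; adjusted p = 0.00805). *Acvr2b*, another type II receptor, went from 51.2 and 59.8 CPM to 23.6 and 27.4 CPM (log2 fold change -1.12, adjusted p = 1.19e-04). *Smad1*, which carries the BMP signal to the nucleus, fell by 0.56 on the log2 scale (adjusted p = 0.00464), and *Smurf1*, a ubiquitin ligase for SMADs, fell by 0.66 (adjusted p = 4.97e-04). *Bmpr2* lost its call without control replicate 2 or either *Cnot3*-cKO library (adjusted p from 0.0122 to 0.0603), and *Smad1* without either *Cnot3*-cKO library (0.0157 and 0.0315).

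*Smad6* and *Smad7*, the inhibitory SMADs that BMP signalling itself induces in many cells, did not pass. *Smad6* was at 2.91 and 2.95 CPM in controls and at 5.16 and 5.90 CPM in *Cnot3*-cKO libraries (log2 fold change 0.92, adjusted p = 0.0215). *Smad7* was at 24.1 and 23.3 CPM and then at 24.5 and 23.6 CPM, with a 95% interval of -0.28 to 0.31 for its log2 fold change. Of 8 enzymes that stabilise or degrade ID proteins 1 rose and 0 fell, where 6.21% of all tested genes rose and 4.7% fell. Their median log2 fold change was -0.15. Both *Cnot3*-cKO libraries lay below both controls for 5 of the 8 and above them for 2. *Usp1* was just short of the limit (log2 fold change -0.38, adjusted p = 0.0105), and without the expression filter 3 of the 8 were lower. The 1 that rose was *Cdc20*, an activator of the anaphase-promoting complex. It went from 131 and 143 CPM to 251 and 226 CPM (log2 fold change 0.80, adjusted p = 9.07e-05). ID proteins are substrates of this complex in other cells, and their protein levels were not measured here.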

How the data were processed

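RNA-seq of sorted ID4-EGFP+ cells gave 2 control and 2 *Cnot3*-cKO libraries, grouped by their labels; the study's legend gives more replicates than the libraries analysed here. The authors filtered reads on mean base quality, aligned them to mm10 with STAR and assigned them to GENCODE genes with featureCounts, and the deposited values are raw read counts per gene symbol. Strand and multi-mapping settings are not given in the sources used here. More genes held 2 reads than 1 in every library (2551 to 2952 against 1347 to 1606), so mates of a pair may have been counted separately and the effective number of fragments may be below the read totals.

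From these counts, edgeR 4.0.16 in R 4.3.3 was run with TMM scaling, its default expression filter and the quasi-likelihood test, with Benjamini-Hochberg adjustment over all genes tested. A gene was called changed at an adjusted p under 0.01, and the study's fold change limit of 2 is given beside it. The 95% intervals come from this fit. CPM uses TMM-scaled library sizes, and levels between genes were divided by the union of exons in GENCODE M21. Figures were drawn with matplotlib 3.10.9 in Python 3.11.15.

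The members, the gene lists, the markers and the sequence motifs were chosen with earlier results of these data known. Named genes were the members, *Cnot3*, up to 3 changed genes of each list with the largest change (mean log2 CPM 1 or more), 10 genes named whatever their values (*Neurog3*, *Sohlh1*, *Sohlh2*, *Tcfl5*, *Tcf21*, *Cbfa2t2*, *Cdkn1a*, *Cdh1*, *Smad6* and *Smad7*) and the 3 genes nearest to *Id4*. *Bmpr2*, *Smad1*, *Etv5*, *Bcl6b*, *Zbtb16*, *Dnmt3b*, *Star*, *Tjp1*, *Dazl*, *Tagln*, *Cnn1*, *Tie1*, *Zeb1* and *Usp1* were named after their values were seen. Alternatives were other scalings, other filters, robust dispersions, a replicate block, DESeq2 1.42.0, other thresholds and leaving out each library. Thinning to 22192964 reads and another gene length were added after seeing the data. The procedure was tested on simulated data.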

Additional observations from a re-analysis of the deposited data

How the results depend on the processing

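*Id4* kept its direction and its call under all 16 alternatives, with log2 fold changes from 0.85 to 1.19, and *Id2*, from 0.93 to 1.15, lost its call only without *Cnot3*-cKO replicate 2. When each library was left out in turn, log2 fold changes ran from -0.22 to 0.63 for *Id1*, 0.93 to 1.11 for *Id2*, -0.38 to 0.25 for *Tcf3*, 0.17 to 0.60 for *Tcf4*, -0.38 to 0.051 for *Sohlh1*, -0.19 to 0.50 for *Tcf21*, -0.31 to 0.26 for *Cdh1* and -0.014 to 0.044 for *Smad7*. These fits gave 1 to 3 members higher, 0 to 1 members lower, and 5 to 7 higher and 6 to 12 lower genes over the 8 lists. Scaling to germ cell markers turned *Tcf3* to 0.032 and *Cdh1* to 0.064, library size alone turned *Cdh1* to 0.013, and dropping the expression filter turned *Smad7* to -0.010. The 8 lower genes of the lists became 5 with scaling to germ cell markers, 16 without the expression filter, 13 with DESeq2 and 16 at an adjusted p under 0.05. With a fold change above 2 required, 4 list genes were higher and 3 lower. The difference in ID share was 6.20 percentage points with no division by length and 9.04 with the longest coding transcript. The cause of these shifts was not tested. The labels share only a replicate number. The deviations of same-numbered libraries from their group means correlated at 0.0822 over 15519 genes. With 2 libraries per group, this value cannot show whether same-numbered libraries shared a litter or a batch. With the replicate block, 13 list genes were lower, and the calls of the 7 members did not change. That block gave 1968 higher and 1637 lower calls over all genes tested, against 1488 and 1125 without it. Over all genes tested, lower calls went from 1125 to 427 with scaling to germ cell markers and to 678 to 1864 when each library was left out.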
